A study of Homo sapiens with 6 samples.

Results

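The genes described here are those of the nuclear pore and of mRNA export, taken from the count table by symbol. They are every symbol that starts with NUP or THOC and a digit, together with NXF1, NXT1, NXT2, TPR, RAE1, SEH1L, AAAS and GLE1. This gave 36 of the 23228 gene symbols. Of these, 35 had enough reads to be tested, and NUP210L, a relative of NUP210, had between 0 and 3 reads per library and was not. Libraries of poly(A) RNA came from U2OS, a human osteosarcoma cell line, taken 48 hours after siRNAs had been delivered with a lipid reagent. The control group of 3 libraries received a scrambled siRNA and the knockdown group of 3 libraries received siRNAs against ALKBH5, an enzyme that removes the methyl mark N6-methyladenosine from RNA. Culture and transfection were described alike for both groups. No second siRNA and no rescue was analysed here, so loss of ALKBH5 and other effects of these siRNAs cannot be told apart. Nothing in the labels says that the replicates were separate cultures, so p-values measure the spread between libraries, which may be technical.

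The nuclear pore is a ring-shaped channel through the nuclear envelope that is built from many copies of proteins called nucleoporins. Stacked scaffold rings, an outer ring of Y-shaped complexes and an inner ring, hold disordered nucleoporins that fill the channel. A basket reaches into the nucleus and filaments reach into the cytoplasm. Messenger RNA is packaged during transcription by the THO complex and the adaptor ALYREF and handed to the export receptor NXF1 with its partner NXT1, which carries it through the channel. Factors on the cytoplasmic side, among them GLE1, then help to strip the receptor off. ALKBH5 is itself a nuclear protein and has been linked to mRNA export.

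Libraries held 18817181 to 23410007 reads in genes, and tested members had 40 to 5962 reads per library. Levels are given as CPM, the read count relative to all reads in the tested genes, scaled between libraries by the TMM method. ALKBH5 had 138, 148 and 143 CPM in the scrambled libraries and 19.4, 16.2 and 15.7 CPM in the knockdown libraries (log2 fold change −3.06, SE 0.10, adjusted p = 1.6e-09). Its groups did not overlap, and an exact permutation test gave p = 0.1, the smallest that 3 against 3 libraries can give. All 9 markers of osteosarcoma and mesenchymal cells were detected, and summed to 6833 to 7244 CPM under scrambled siRNA and 7817 to 8557 CPM under ALKBH5 siRNA. Of these 9 markers 6 rose, VIM and SPARC fell (log2 fold changes −0.39 and −0.51), and COL1A2 did not pass (−1.97). The T cell marker CD3E was at 0 in every library. The 7 leukocyte markers summed to 28.1 to 31.6 CPM and to 96.4 to 201 CPM in the same order, with LCP1 at a mean of 18.2 and 135 CPM. Of the other leukocyte markers PTPRC and CORO1A fell (log2 fold changes −1.06 and −0.48), and CD68 did not pass (−0.17). The 9 epithelial markers summed to 548 to 641 and 626 to 649 CPM, but single markers moved in opposite directions. KRT14, CLDN7 and KRT8 fell (log2 fold changes −4.51, −2.46 and −0.45). CDH1, CLDN4 and KRT18 rose (1.45, 1.07 and 0.71), and EPCAM and ESRP1 did not pass. The 6 endothelial markers summed to 13.4 to 15.2 and 10.2 to 10.7 CPM. Of these VWF and KDR fell (log2 fold changes −2.70 and −3.81), and TEK, ERG and CDH5 did not pass. Of 16 mitosis genes 14 were lower and 1 higher. Beside these counts, 30.8% of all tested genes were lower and 30.8% higher. Reads placed uniquely outside genes made up 15.3% ± 0.23 of unique reads after scrambled and 17.9% ± 0.66 after ALKBH5 siRNA (SD, n = 3). The part that any of these differences has in the results below was not tested.

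Most pore and export genes moved little, and more of those that changed were lower than higher in the knockdown libraries. A gene is said to have risen or fallen where its adjusted p in edgeR's quasi-likelihood test, over all 14504 tested genes, was under 0.05. Of the 35 tested members 15 fell and 5 rose. That is 57.1% of the members, beside 61.6% of all tested genes, of which 30.8% were higher and 30.8% lower, so the share of members that changed was near the background. The median log2 fold change of the members was −0.18, beside 0.01 over all tested genes, and the median size of the change was 0.26 beside 0.46. NUP62CL was the single member whose log2 fold change was 1 or more in size, beside 20.2% of all tested genes. For 23 of 35 members the CPM ranges of the groups were apart, with 18 below and 5 above the scrambled libraries, beside 67.4% of all tested genes without overlap. Tested against a change of 1.5-fold, 3 members passed, beside 24.8% of all tested genes: NUP205 fell, and NXT1 and NUP62CL rose. In such bulk RNA, less RNA per cell and fewer cells that express a gene cannot be told apart.

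Summed over the tested members, the level was 3339, 3468 and 3565 CPM in the scrambled libraries and 2806, 3152 and 3035 CPM in the knockdown libraries. Every knockdown library was thus below every scrambled library in the sum, and knockdown replicate 1 was the lowest. As a share of reads in genes with no scaling between libraries, the members took 0.353% ± 0.0099 after scrambled and 0.293% ± 0.013 after ALKBH5 siRNA (SD, n = 3). The plot of fold changes by role gives every tested member. Counts by role below stand beside 30.8% lower and 30.8% higher among all tested genes.

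**Figure D1:**
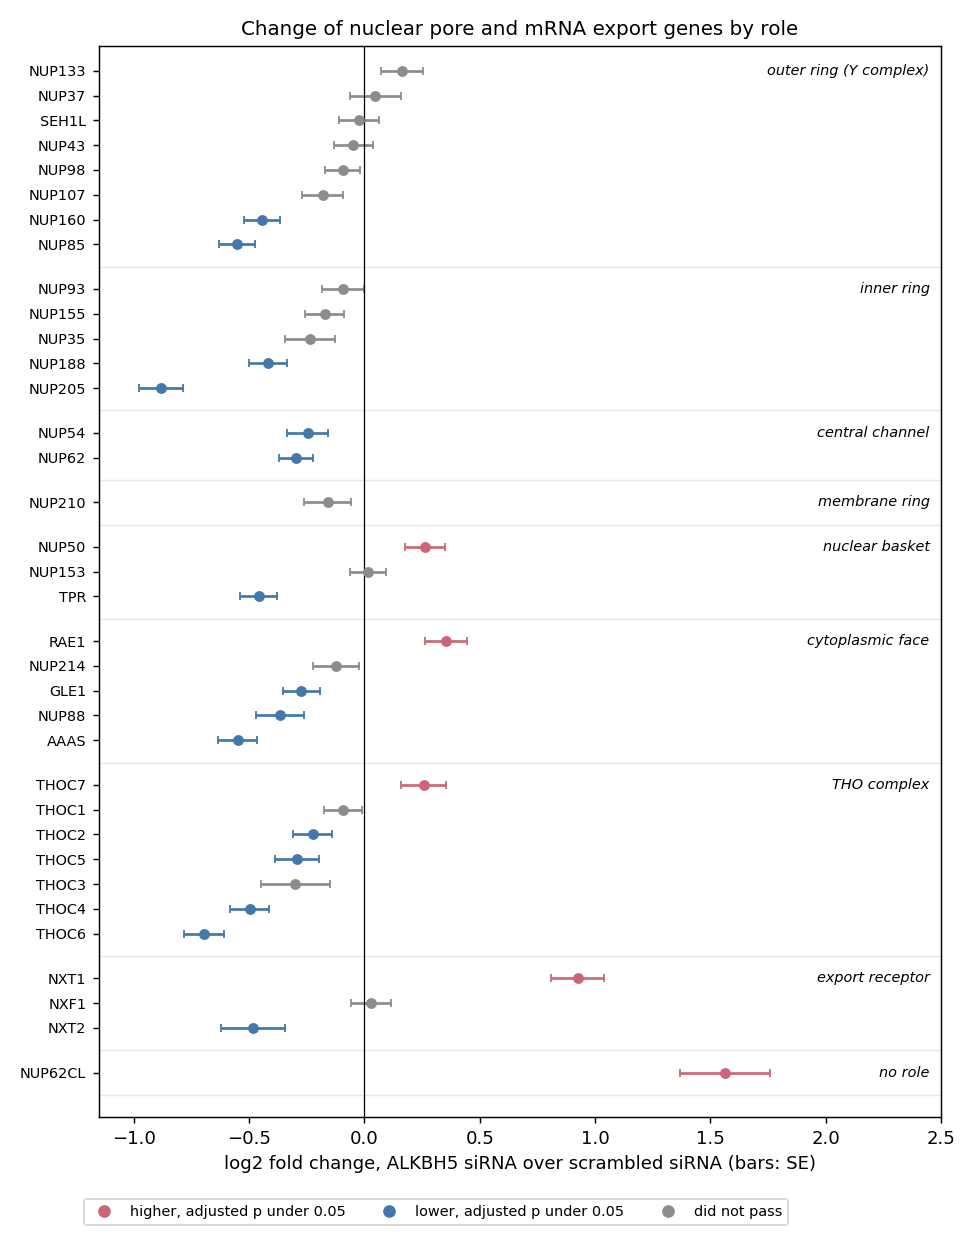
Log2 fold change of each of the 35 tested members, ALKBH5 siRNA over scrambled siRNA, grouped by role from the outer ring at the top to the export receptor and NUP62CL, which has no assigned role, at the bottom, with bars of 1 SE and red and blue for genes that rose and fell. The 3 members that passed against 1.5-fold were NUP205 at −0.88, NXT1 at 0.92 and NUP62CL at 1.56. THOC6, at −0.70, came next to NUP205.

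The outer ring, built from Y complexes, was measured only through the 8 genes that the symbol rule takes, and 2 of them fell. NUP85, a subunit of one arm of the Y, had 138, 135 and 150 CPM in the scrambled libraries and 92.2, 97.0 and 98.8 CPM in the knockdown libraries. The groups were well apart, and the knockdown mean was 1.47-fold lower (log2 fold change of −0.55 with an SE of 0.08, adjusted p = 6.0e-05). NUP160, a subunit of the other arm, fell from 210 ± 8.71 to 155 ± 10.5 CPM (SD, n = 3; log2 fold change −0.44, adjusted p = 0.00037). The other 6 did not pass. These were the stem subunits NUP107 and NUP133, at log2 fold changes of −0.18 and 0.16, the small beta-propeller subunits NUP43, NUP37 and SEH1L, at −0.05, 0.05 and −0.02, and NUP98, at −0.09. The NUP98 transcript encodes a precursor that is cut into the channel protein NUP98 and the Y subunit NUP96, so its level stands for both proteins. NUP107 passed without scrambled replicate 1 (adjusted p = 0.046), and its adjusted p-values over 14 alternatives ran from 0.025 to 0.29. Such ranges cover every alternative but the test against 1.5-fold. In every knockdown library NUP85 and NUP160 lay below all scrambled libraries, and the ranges of the other 6 overlapped between the groups. Whether the subunits differed in their changes was not tested.

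In the inner ring 2 of 5 genes fell, and NUP205 had the largest fall of the 35 tested members. NUP205, a large scaffold protein of this ring, had 117, 125 and 122 CPM in the scrambled libraries and 58.7, 74.5 and 64.1 CPM in the knockdown libraries. The highest knockdown library was still far under the lowest scrambled one, and the mean fell 1.84-fold (log2 fold change −0.88, SE 0.09, adjusted p = 7.1e-06). NUP188, which is related in sequence and fold to NUP205, fell 1.34-fold, from 160 ± 1.98 to 120 ± 11.7 CPM (SD, n = 3; log2 fold change −0.42, SE 0.08, adjusted p = 0.00093). Whether the fall of NUP205 differed from that of NUP188 was not tested. NUP35, NUP155 and NUP93, which join the ring to the membrane and to the channel, had log2 fold changes of −0.23, −0.17 and −0.09 and did not pass. NUP35 and NUP155 passed without knockdown replicate 2 (adjusted p = 0.018 and 0.043). Their adjusted p-values over 14 alternatives ran from 0.018 to 0.24 and from 0.020 to 0.32.

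In the central channel both members fell. NUPL1, a channel gene that the symbol rule does not take, rose (log2 fold change 0.50, adjusted p = 0.0011). NUP62, whose phenylalanine-glycine repeats help to form the barrier, had 181, 187 and 197 CPM in the scrambled libraries and 147, 155 and 158 CPM in the knockdown libraries. The groups lay apart by less than 1.5-fold (1.23-fold, log2 fold change −0.30, SE 0.07, adjusted p = 0.0039). In the GENCODE 29 annotation, 10.4% of the exon bases of NUP62 are shared with ATF5 on the opposite strand and 5.58% with IL4I1 on the same strand, so its reads are uncertain there. Its channel partner NUP54 fell from 91.0 ± 5.00 to 76.8 ± 6.45 CPM (SD, n = 3; log2 fold change −0.25, adjusted p = 0.029). NUP54 did not pass without scrambled replicate 1 or 3 or knockdown replicate 1 or 3 (adjusted p = 0.058, 0.081, 0.067 and 0.10), and its adjusted p-values over 14 alternatives ran from 0.0071 to 0.10. In the membrane ring, NUP210, a glycoprotein that spans the envelope, had 77.7, 72.9 and 59.7 CPM against 63.7, 64.9 and 59.9 CPM. Those values overlapped, and the gene did not pass (log2 fold change −0.16, adjusted p = 0.20). It passed without scrambled replicate 3 (log2 fold change −0.27, adjusted p = 0.027), and its adjusted p-values over 14 alternatives ran from 0.027 to 0.55.

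The nuclear basket split 3 ways. TPR, the coiled-coil protein that forms the basket's filaments, had 248, 271 and 257 CPM in the scrambled libraries and 174, 189 and 202 CPM in the knockdown libraries. All knockdown values lay below all scrambled ones, a 1.37-fold lower level (log2 fold change −0.46, SE 0.08, adjusted p = 0.00033). NUP50, a mobile basket protein that also binds importin alpha, had 89.8, 92.5 and 98.9 CPM against 105, 124 and 108 CPM. It rose 1.20-fold (log2 fold change 0.26, SE 0.09, adjusted p = 0.019). It no longer passed when scrambled replicate 1 or 2 or knockdown replicate 2 was left out (adjusted p = 0.074, 0.065 and 0.057) or on library totals (0.051), over a range of 0.0077 to 0.074 in 14 alternatives. A copy at 98% identity or more was found elsewhere for 26.8% of the NUP50 transcript. NUP153, which anchors the basket, stood at 144 ± 6.53 and 145 ± 8.46 CPM (SD, n = 3) and did not pass (log2 fold change 0.02, adjusted p = 0.87).

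On the cytoplasmic face 3 of 5 genes fell and 1 rose. AAAS, the protein ALADIN, which is lost in triple A syndrome, had 78.3, 81.0 and 80.6 CPM in the scrambled libraries and 52.3, 52.7 and 59.1 CPM in the knockdown libraries. The scrambled libraries lay close together and well above the others (1.46-fold, log2 fold change −0.55, SE 0.08, adjusted p = 0.00013). NUP88, which holds NUP214 at the pore, fell from 70.4 ± 8.08 to 54.7 ± 4.67 CPM (SD, n = 3; log2 fold change −0.36). GLE1, the activator of the export helicase DDX19, fell from 92.0 ± 2.53 to 76.2 ± 4.86 CPM (SD, n = 3; log2 fold change −0.27). GLE1 did not pass without knockdown replicate 1 (adjusted p = 0.051), in a range of 0.0023 to 0.051 over 14 alternatives. RAE1, an export factor that binds NUP98, moved the other way, with 103, 101 and 113 CPM in the scrambled libraries and 120, 146 and 138 CPM in the knockdown libraries. The lowest knockdown library was above the highest scrambled one, and the level was 1.28-fold higher (log2 fold change 0.35, SE 0.09, adjusted p = 0.0046). NUP214, the filament nucleoporin that docks DDX19, did not pass (log2 fold change −0.12, adjusted p = 0.30). Exons of NUP88 overlap those of RPAIN and RABEP1 on the opposite strand, by 9.82% and 8.84% of its exon bases, so its counts are uncertain there.

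**Figure D2:**
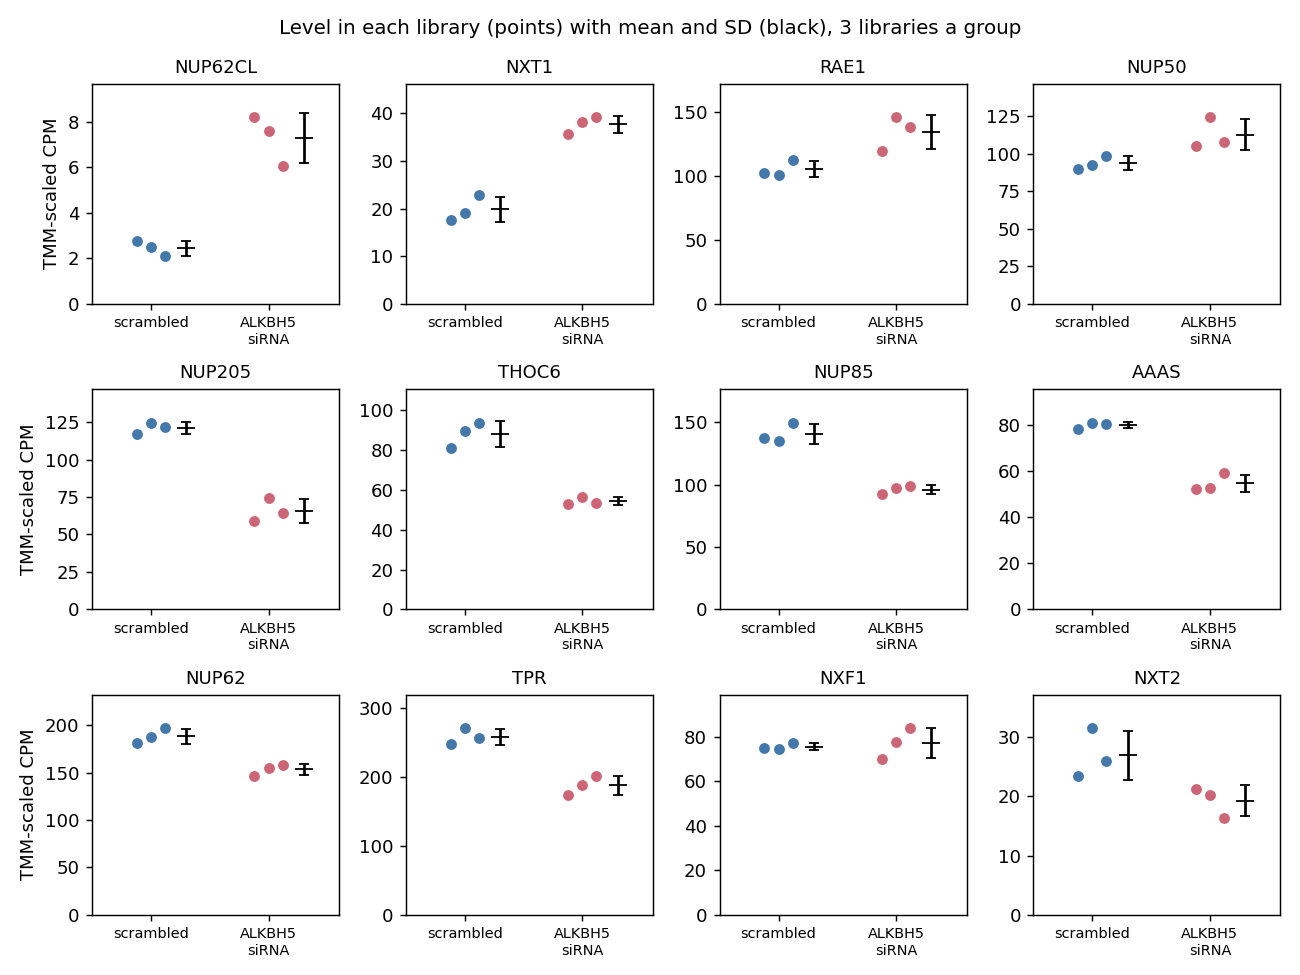
TMM-scaled CPM of 12 members in each library, scrambled siRNA in blue and ALKBH5 siRNA in red, with the mean and SD of 3 libraries in black and each axis starting at 0. The groups overlap for NXF1 alone among these genes, since the scrambled libraries lie at 74.6 to 77.3 CPM, within the knockdown range of 70.2 to 83.9 CPM.

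The THO complex and its partner ALYREF, the latter listed under its older symbol THOC4, were lower in 4 of 7 genes and higher in 1. THOC6, a subunit of the complex, had 81.2, 89.5 and 93.8 CPM in the scrambled libraries and 52.9, 56.7 and 53.7 CPM in the knockdown libraries. It fell 1.62-fold, with no overlap (log2 fold change −0.70, SE 0.09, adjusted p = 2.3e-05). In GENCODE 29, 14.0% of its exon bases are shared with HCFC1R1 on the opposite strand. ALYREF, which binds NXF1 and passes it the RNA, fell 1.41-fold, from 106 ± 6.83 to 75.0 ± 4.41 CPM (SD, n = 3; log2 fold change −0.50, SE 0.08, adjusted p = 0.00028). THOC5 and the large scaffold THOC2 fell by 0.29 and 0.22 on the log2 scale. THOC7, a small coiled-coil subunit, rose from 46.2 ± 3.70 to 55.1 ± 3.50 CPM (SD, n = 3; log2 fold change 0.26, adjusted p = 0.034). THOC1 had a log2 fold change of −0.09 and did not pass, although its knockdown libraries, at 51.5 to 53.1 CPM, lay below its scrambled libraries, at 54.9 to 58.3 CPM. THOC3 did not pass either (log2 fold change −0.30, adjusted p = 0.10). It passed on library totals (log2 fold change −0.37, adjusted p = 0.046), and its adjusted p-values over 14 alternatives ran from 0.046 to 0.22. Of its transcript, 98.9% has a copy at 98% identity or more in AC106795.1, so its counts are uncertain.

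The calls of the smaller THO changes depended on which libraries were used, while their size moved less. With 1 library left out, the log2 fold change ran from −0.26 to −0.18 for THOC2 and from −0.34 to −0.21 for THOC5. That of THOC7 ran from 0.19 to 0.30. The groups overlapped for none of the 7 genes of this role, THOC1 and THOC3 included, beside 67.4% of all tested genes without overlap. THOC2 did not pass with DESeq2 (adjusted p = 0.052) or without scrambled replicate 1 or 2 or knockdown replicate 1 or 3 (0.083, 0.12, 0.12 and 0.067), over a range of 0.0087 to 0.12. THOC5 did not pass without scrambled replicate 3 or knockdown replicate 1 (adjusted p = 0.066 and 0.076), over a range of 0.0022 to 0.076. THOC7 did not pass on library totals (adjusted p = 0.086) or without scrambled replicate 1 or 2 or knockdown replicate 2 or 3 (0.15, 0.080, 0.087 and 0.053), over a range of 0.013 to 0.15. THOC6 and ALYREF passed under each of these 14 alternatives.

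The export receptor itself did not pass, while its alternative partners moved in opposite directions. NXF1, which carries bulk mRNA through the pore, had 74.8, 74.6 and 77.3 CPM in the scrambled libraries and 70.2, 77.5 and 83.9 CPM in the knockdown libraries. The knockdown values spread around the scrambled ones (log2 fold change 0.03, SE 0.09, adjusted p = 0.78). NXT1, the partner that NXF1 needs to bind the channel, had 17.7, 19.1 and 22.8 CPM in the scrambled libraries and 35.6, 38.2 and 39.2 CPM in the knockdown libraries. Every knockdown library was over 1.5-fold above every scrambled one, and the level was 1.90-fold higher (log2 fold change 0.92, SE 0.11, adjusted p = 2.2e-05). NXT2, a paralogue of NXT1 encoded on the X chromosome, had 23.4, 31.5 and 25.9 CPM in the scrambled libraries and 21.3, 20.3 and 16.3 CPM in the knockdown libraries. The groups did not overlap but lay close to each other, and the mean fell 1.40-fold (log2 fold change −0.48, SE 0.14, adjusted p = 0.0094). NXT2 did not pass when scrambled replicate 2 was left out (adjusted p = 0.055, in a range of 0.0024 to 0.055 over 14 alternatives). The ratio of NXT1 to NXT2 reads was 0.756, 0.607 and 0.879 in the scrambled libraries and 1.67, 1.89 and 2.40 in the knockdown libraries. The sum of both genes was 46.8 ± 5.06 CPM after scrambled and 57.0 ± 1.47 CPM after ALKBH5 siRNA (SD, n = 3).

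NUP62CL, a gene on the X chromosome related to the C-terminal part of NUP62 and with no assigned place in the pore, had the highest fold change of the tested members. It had 2.75, 2.5 and 2.09 CPM in the scrambled libraries and 8.19, 7.58 and 6.04 CPM in the knockdown libraries. The level was 2.95-fold higher (log2 fold change 1.56, SE 0.20, adjusted p = 2.5e-05). The groups did not overlap. The values rest on 40 to 66 reads per scrambled library, the fewest of the tested members, and on 118 to 160 reads per knockdown library. NUP62 itself fell, as given above.

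Levels of different genes were compared per kilobase of transcript, with GENCODE 29 lengths of 1 principal transcript a gene. The median of the 35 members was 26.2 CPM per kb after scrambled and 21.5 CPM per kb after ALKBH5 siRNA, and 33 of them lay above the median of all genes with a length, 9.67 CPM per kb in the scrambled libraries. ALYREF (97.2 ± 6.28) and SEH1L (89.8 ± 6.83) led in the scrambled libraries, followed by NUP85 (66.3 ± 3.73) and THOC6 (62.1 ± 4.53 CPM per kb, SD, n = 3). The ranges of ALYREF and SEH1L over the scrambled libraries overlapped, although ALYREF was the higher of the pair in each library. The same held for NUP85, THOC6 and the fifth gene in order, NUP93 (59.3 ± 5.59 CPM per kb), which kept this order in each scrambled library. These differences were not tested. In the outer ring the level per kb spanned 11.1 for NUP133 to 89.8 for SEH1L. The order changed in the knockdown libraries. NXT1 went from place 23 of 35 (17.7 ± 2.35 CPM per kb) to place 9 (33.5 ± 1.64), above NXF1, which had 27.0 ± 0.52 and 27.6 ± 2.46. NUP205 went from place 21 (19.3 ± 0.60) to place 30 (10.5 ± 1.29). At the low end stood THOC3 and NUP62CL, with 4.89 and 1.39 CPM per kb in the scrambled libraries.

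**Figure D3:**
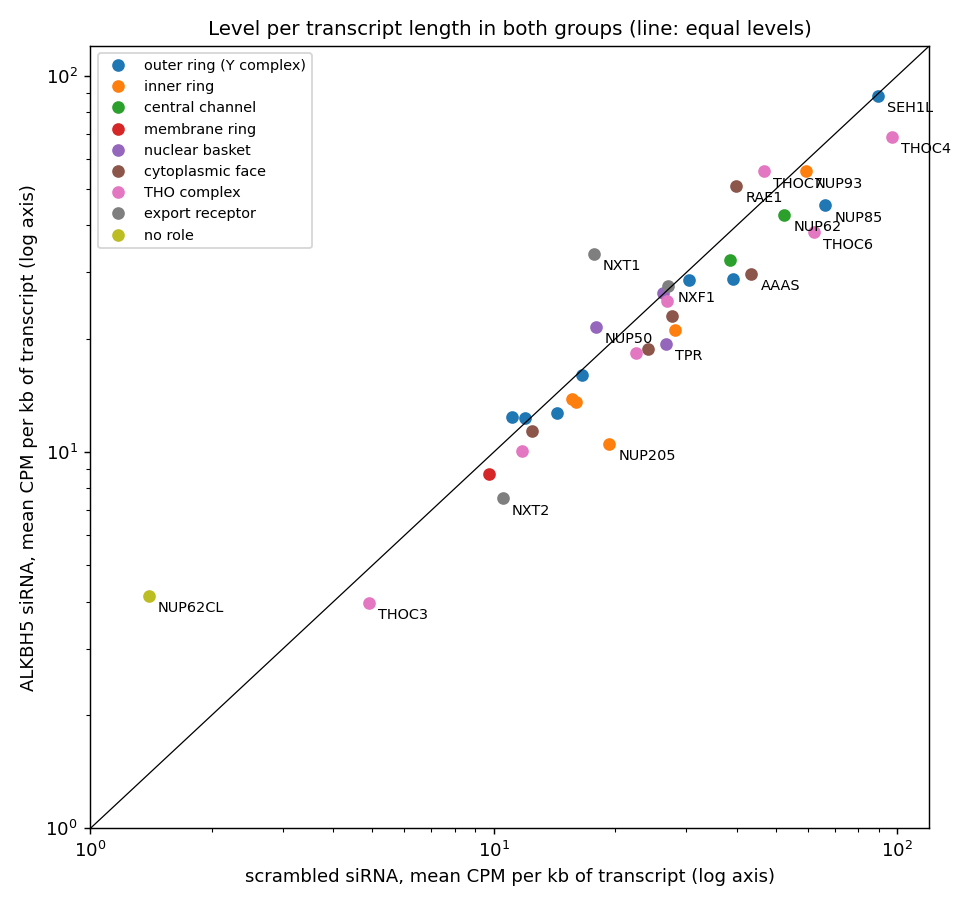
Mean CPM per kb of transcript of 35 members in scrambled siRNA libraries (x axis, log scale) and ALKBH5 siRNA libraries (y axis, log scale), coloured by role, with a line of equal levels. NXT1 (17.7 and 33.5) and NUP62CL (1.39 and 4.14) lie above the line, and NUP205 (19.3 and 10.5) below it.

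RefSeq promoters on GRCh38.p14, from 250 bases before to 50 bases after the start, were matched for 33 of the 36 members. GLE1, NUP43 and THOC7 were not matched. Those of the 3 members that passed against 1.5-fold are printed here, with that of NXT2, the paralogue that went the opposite way from NXT1. Capitals mark matches on either strand to the E2F elements of type 1 (TTCCCGC) and type 2 (TTGGCGC), the NRF1 core (TGCGCA), the CCAAT box, the ETS core (CCGGAA) and the cell cycle homology region (TTTGAA). Matches of different motifs may overlap.
NXT1, chr20:23350541-23350840, plus strand: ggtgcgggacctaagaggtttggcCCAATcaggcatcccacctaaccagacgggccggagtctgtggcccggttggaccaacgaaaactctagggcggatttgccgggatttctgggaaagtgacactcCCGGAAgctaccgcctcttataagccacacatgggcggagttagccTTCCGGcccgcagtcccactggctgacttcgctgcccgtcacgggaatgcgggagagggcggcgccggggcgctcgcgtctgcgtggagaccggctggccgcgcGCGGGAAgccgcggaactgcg
NXT2, chrX:109535574-109535873, plus strand: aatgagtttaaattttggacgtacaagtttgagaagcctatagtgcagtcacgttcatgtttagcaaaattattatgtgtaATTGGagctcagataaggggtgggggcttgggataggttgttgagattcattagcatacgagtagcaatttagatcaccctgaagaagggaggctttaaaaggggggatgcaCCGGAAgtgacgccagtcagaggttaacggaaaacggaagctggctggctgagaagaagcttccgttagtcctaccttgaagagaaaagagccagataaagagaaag
NUP205, chr7:135557667-135557966, plus strand: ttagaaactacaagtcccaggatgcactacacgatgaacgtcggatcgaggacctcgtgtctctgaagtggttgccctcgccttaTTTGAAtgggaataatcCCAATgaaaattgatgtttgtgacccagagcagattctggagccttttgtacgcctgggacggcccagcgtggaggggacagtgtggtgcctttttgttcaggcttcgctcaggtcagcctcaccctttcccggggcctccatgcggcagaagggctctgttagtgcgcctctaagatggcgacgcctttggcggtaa
NUP62CL, chrX:107206384-107206683, minus strand: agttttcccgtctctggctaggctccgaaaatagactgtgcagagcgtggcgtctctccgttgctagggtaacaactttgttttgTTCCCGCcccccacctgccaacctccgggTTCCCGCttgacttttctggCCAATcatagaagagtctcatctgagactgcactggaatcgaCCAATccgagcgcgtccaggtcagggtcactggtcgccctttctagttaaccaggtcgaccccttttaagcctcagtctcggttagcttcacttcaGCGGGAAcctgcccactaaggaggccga
The NXT1 window held 31 CpG pairs and matches to the E2F type 1 element, the CCAAT box and the ETS core. The NXT2 window, the first of 3 starts listed for the gene, held 8 CpG pairs and matches to the CCAAT box and the ETS core. NUP205 had 16 CpG pairs with the CCAAT box and the cell cycle homology region, and NUP62CL 17 CpG pairs with the E2F type 1 element and the CCAAT box.

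Across the members, the ETS core was in 16 of 33 promoters (48.5%, beside 17.6% of 27305 promoters of all genes) and the E2F type 1 element in 8 (24.2%, beside 6.56%). The NRF1 core was in 6 (18.2%, beside 8.42%), the CCAAT box in 16 (48.5%, beside 35.7%), the E2F type 2 element in 2 (6.06%, beside 3.12%) and the cell cycle homology region in 5 (15.2%, beside 15.4%). The GC box (GGGCGG), not capitalised above, was in 19 (57.6%, beside 44.6%). Member promoters also held more CpG pairs, with a median of 25 beside 14. The 27305 promoters include those of genes not tested here. Shares among tested genes alone were not computed, so these differences may not be particular to the members. Among members that fell, the ETS core was in 7 of 14 promoters and the E2F type 1 element in 4 of 14. Among those that did not pass, the numbers were 7 of 14 and 2 of 14, and among those that rose 2 of 4 for either. A match describes these letters in this window and shows no bound factor.

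Nucleoporins that the symbol rule does not take went both ways, with 4 of 8 lower and 2 higher (median log2 fold change −0.09), or 75% called beside 61.6% of all tested genes. POM121C and POM121, membrane nucleoporins, fell from 39.4 ± 1.52 to 19.0 ± 0.77 CPM and from 40.7 ± 2.22 to 21.9 ± 1.03 CPM (SD, n = 3; log2 fold changes −1.05 and −0.89). Counts of this near-identical pair are uncertain. TMEM48, the older symbol of the membrane nucleoporin NDC1, rose from 78.1 ± 3.88 to 131 ± 10.7 CPM (SD, n = 3; log2 fold change 0.75). The other gene that rose, NUPL1 of the central channel, had a log2 fold change of 0.50 and was named after its value was seen. Together with NUP210, which did not pass, the membrane nucleoporins of the pore thus had values on both sides of 0.

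Other mRNA export factors were lower in 18 of 27 tested genes and higher in 1, with a median log2 fold change of −0.34. Among all tested genes 30.8% were lower and 30.8% higher. This list, like the others, was chosen with earlier results of these data known, and its share was not tested. EIF4A3, a core of the exon junction complex, fell 2.26-fold, from 146 ± 9.0 to 64.8 ± 3.59 CPM (SD, n = 3; log2 fold change −1.17, adjusted p = 2.3e-07). SHFM1, a small subunit shared by the TREX-2 export complex and the proteasome, fell by 0.93 and ZC3H11A, a zinc finger protein of the TREX complex, by 0.84 on the log2 scale. The gene that rose was FYTTD1, an export adaptor (log2 fold change 0.38), named after its value was seen.

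Transport receptors and the Ran cycle were lower in 11 of 34 tested genes and higher in 8 (median log2 fold change −0.16). That is 55.9% called, near the 61.6% of all tested genes. KPNB1, the import receptor importin beta, fell from 694 ± 67.1 to 218 ± 3.08 CPM (SD, n = 3; 3.18-fold, log2 fold change −1.67, adjusted p = 1.9e-08). RCC1, the chromatin-bound exchange factor that loads Ran with GTP, fell 5.48-fold, from 144 ± 20.7 to 26.2 ± 3.64 CPM (SD, n = 3; log2 fold change −2.46, adjusted p = 3.5e-08). XPOT, the exporter of transfer RNA, rose from 70.0 ± 7.63 to 182 ± 17.7 CPM (SD, n = 3; log2 fold change 1.38, adjusted p = 2.8e-07). KPNB1, RCC1 and XPOT were named for their small adjusted p. Over the whole list the median size of the log2 fold change was 0.26, beside 0.24 over the 24 members with a role in the pore.

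**Figure D4:**
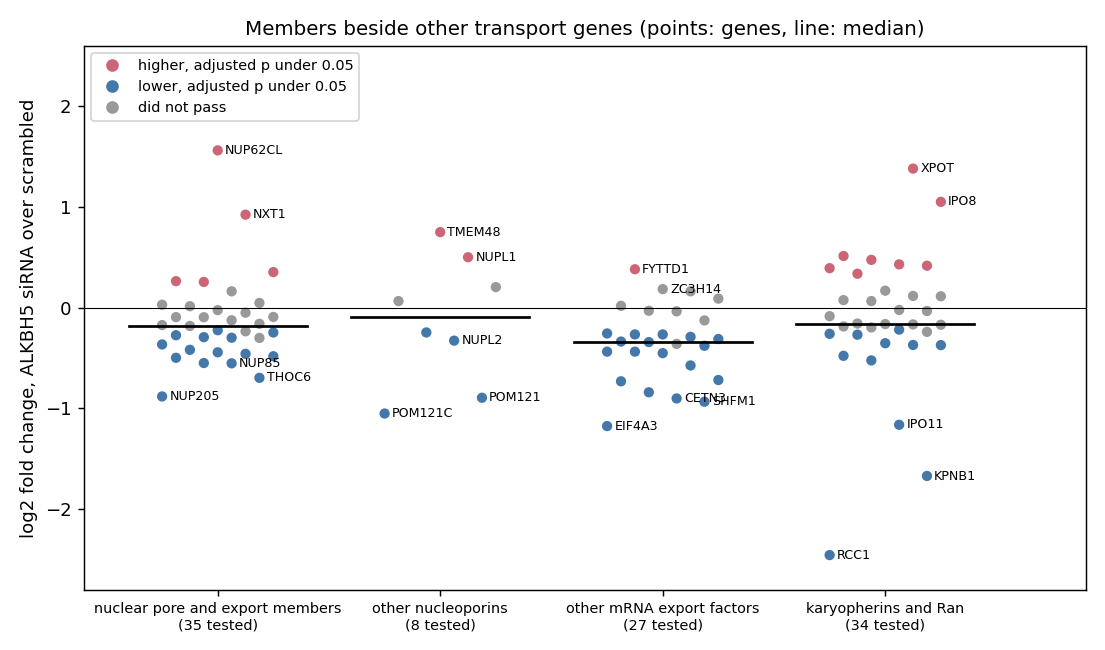
Log2 fold changes of the 35 tested members and of 8 other nucleoporins, 27 other mRNA export factors and 34 transport receptor and Ran genes, with the median of each as a line. The medians are −0.18, −0.09, −0.34 and −0.16, and the last list reaches from −2.46 for RCC1 to 1.38 for XPOT.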

How the data were processed

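RNA-seq libraries of U2OS cells were compared, 3 with ALKBH5 siRNA against 3 with scrambled siRNA, grouped by their titles. The authors deposited unnormalised read counts for each gene symbol, made from a stranded kit per the labels. CASAVA 1.8.2, TopHat2, SAMtools, HTSeq and hg19 are named in the submitters' processing notes. For the annotation and the strand setting of the counter, the sources used here give nothing, so reads of overlapping genes on opposite strands cannot be separated. The table of the whole series and the 6 single files held the same values, and HTSeq's summary lines entered neither the library sizes nor any test.

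Counts were filtered with filterByExpr, scaled with TMM and tested with edgeR 4.0.16 in R 4.3.3 (robust quasi-likelihood, 2-sided, Benjamini-Hochberg over 14504 genes, threshold 0.05). The fit was tested on simulated data, where false calls were somewhat more frequent than the threshold allows. A far smaller share of genes was changed there than was called here, so the share of false calls here is not given by it. Calls close to the threshold remain uncertain. Alternatives were RLE scaling, library totals, no filter, 1 CPM in 3 libraries, DESeq2 1.42.0, limma 3.58.1 (voom), no robust moderation, glmTreat against 1.5-fold, a replicate block, and each library left out. Members and lists were chosen with earlier results of these data known. Every member in the table is named. Values per library are given for the 4 risen and 4 fallen members with the largest changes, the smallest adjusted p of each role, and NXF1, NXT1 and NXT2. Up to 3 genes are named for each other transport list, by adjusted p. Copies were searched with BLAST+ 2.17.0 among GENCODE 29 transcripts (98% identity, 50 bases or more).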

Additional observations from a re-analysis of the deposited data

How the results depend on the processing

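Of the 35 tested members, 19 kept their call and direction under every alternative but the test against 1.5-fold, 13 of the 20 called members among them. That test called 3601 genes in place of 8937, with 2 members higher and 1 lower. On library totals with no scaling factor 3 members were higher, in place of 5, and 19 lower, in place of 15, and the median of all genes moved by −0.07 on the log2 scale (44.6% of called genes higher, in place of 50.0%). Without 1 library, 3 to 5 members were higher and 11 to 17 lower, and 7878 to 8694 genes were called. The lowest counts of risen members came without scrambled replicate 1, scrambled replicate 2 or knockdown replicate 2. The direction turned for 4 members near 0, none of them called. On library totals NUP153, NUP37 and NXF1 had log2 fold changes of −0.0500, −0.0182 and −0.0350. With 1 library left out, NUP153 ran from −0.0260 to 0.0662, NUP37 from −0.0101 to 0.137, NXF1 from −0.0305 to 0.0986 and SEH1L from −0.0891 to 0.0251. The turns came without scrambled replicate 1 or knockdown replicate 2 for NUP153, without knockdown replicate 2 for NUP37, without knockdown replicate 3 for NXF1, and without scrambled replicate 3 or knockdown replicate 1 or 3 for SEH1L. The cause was not tested. With the replicate block 9760 genes were called, and 5 members were higher and 17 lower, with NUP107 and NUP155 added (adjusted p = 0.038 and 0.044). Deviations of libraries with the same number correlated at 0.33, 0.06 and 0.35 over genes. Scrambled replicate 1 with knockdown replicate 3 gave −0.27, and scrambled replicate 3 with knockdown replicate 1 gave −0.37. Scrambled replicate 2 correlated about equally with knockdown replicate 1 (0.08). These values do not settle whether the numbers mark pairs. The labels name no pairing, so the main fit has no block.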

Other observations

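Genes of the nuclear lamina and envelope, in which pores are set, were higher in 5 and lower in 5 of 14 tested cases (median log2 fold change 0.07), or 71.4% called beside 61.6% of all tested genes. SUN2, which links the lamina to the cytoskeleton, rose from 194 ± 6.54 to 393 ± 19.1 CPM, and LEMD3, an inner membrane protein, from 36.8 ± 2.06 to 65.0 ± 5.84 CPM (SD, n = 3; log2 fold changes 1.02 and 0.82 in edgeR). LMNB2, a B-type lamin, fell from 328 ± 14.9 to 217 ± 4.77 CPM (SD, n = 3; log2 fold change −0.60).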
